A study of Mus musculus with 8 samples.

Results

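Genes of the acute-phase response were followed in the gastrocnemius, a calf muscle, of male wild-type (WT) mice at day 4 after cecal slurry, material from the cecum whose injection starts a polymicrobial infection. The 10 genes were Saa1, Saa2, Saa3, Lcn2, Hp, Lbp, Ptx3, Serpina3n, Serpina3m and Timp1. They were chosen by name from the 25655 genes of the deposited count table, with the difference between septic and control muscle in these same samples already known, so their own levels are described here and not tested. The Control group held 5 samples from male WT mice given 10% glycerol, and the Sepsis group held 3 samples from male WT mice given cecal slurry, all taken at day 4. The series title names β-nicotinamide mononucleotide, and none of these 8 samples is labelled as treated with it. The RNA came from whole muscle, so the cell that carried a transcript is not resolved, in bulk tissue fewer cells of a type and less RNA per cell cannot be told apart, and no protein was measured.

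The acute-phase response is the change in secreted and plasma proteins that follows infection or injury. Interleukin-6 and its relatives act through STAT3, and interleukin-1 and tumour necrosis factor act through NF-κB, together with the C/EBPβ and C/EBPδ transcription factors, to raise this set of genes. The liver is its main site in the body, but several of the genes are also transcribed in fat, macrophages, neutrophils, endothelium and muscle.

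The 10 genes did not move as a group in this muscle. Saa3, Lcn2, Serpina3n, Serpina3m and Saa1 were higher in every septic library than in every control library, Ptx3 was lower in every septic library, and Saa2, Hp, Lbp and Timp1 overlapped between the groups. Among the 9810 genes with enough reads to be tested, 23.1% lay above the controls in every septic library and 24.3% lay below them, 47.5% in all, and edgeR's test called 50.4% in either direction. Among the 16368 genes with at least 1 read the shares were 15.2% and 16.4%. Since the 10 genes were picked with this contrast in view, nothing is read from their count of 5 above and 1 below. Only 5 of the 10 (Lcn2, Saa3, Serpina3n, Hp and Lbp) had enough reads to enter the fit across genes, and the first 3 of these did so through their septic reads.

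Library totals ran from 3086277 to 4016329 counts, and 1 read was worth 0.278 to 0.362 CPM in controls and 0.21 to 0.266 CPM in sepsis. CPM is the count scaled to a common library size, after correction by trimmed means of M values. The libraries read the 3′ ends of transcripts, about 1 read per captured end, so counts were not divided by gene length. Replicates differed by more than sampling noise in every pair, with a chi-square per degree of freedom, over genes with at least 10 reads, from 2.04 to 6.86 for pairs of controls and from 11.0 to 26.3 for pairs of septic libraries. Control 1 stood apart from the other controls in collagen, with 485 CPM of Col1a1 against 129 to 270 CPM, and it held all 37 reads of Mmp13, a collagenase. Whether each library is a separate animal is not stated in the labels, and p-values below therefore reflect the spread of these samples alone, which may be technical. The 8 skeletal muscle markers, which include the actin gene Acta1 and the creatine kinase gene Ckm, summed to 141939 to 164862 CPM in controls and 63937 to 89745 CPM in sepsis, and 7 of the 8 fell (edgeR, adjusted p under 0.05).

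The promoters of 6 of the genes are shown because Saa3, Saa1, Lcn2 and Serpina3n were higher together in sepsis, Ptx3 was lower and Saa2 stayed at single reads. RefSeq's promoter table, on build GRCm38.p6, held 7 of the 10 genes. The 250 bases before the transcription start are printed 5′ to 3′ along the gene, on the plus strand for Saa2, Ptx3 and Serpina3n and on the minus strand for Saa3, Saa1 and Lcn2. Capitals mark a match to TTGCNNAA on either strand, the core that C/EBP proteins bind. The windows are chr7:46715677-46715926 for Saa3, chr7:46742981-46743230 for Saa1, chr7:46751583-46751832 for Saa2, chr2:32387740-32387989 for Lcn2, chr3:66219637-66219886 for Ptx3 and chr12:104406458-104406707 for Serpina3n.
Saa3: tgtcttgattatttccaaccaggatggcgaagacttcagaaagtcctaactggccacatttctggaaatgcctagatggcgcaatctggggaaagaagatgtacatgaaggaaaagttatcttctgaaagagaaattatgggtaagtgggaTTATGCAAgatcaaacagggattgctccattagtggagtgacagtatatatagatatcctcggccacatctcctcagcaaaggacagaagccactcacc
Saa1: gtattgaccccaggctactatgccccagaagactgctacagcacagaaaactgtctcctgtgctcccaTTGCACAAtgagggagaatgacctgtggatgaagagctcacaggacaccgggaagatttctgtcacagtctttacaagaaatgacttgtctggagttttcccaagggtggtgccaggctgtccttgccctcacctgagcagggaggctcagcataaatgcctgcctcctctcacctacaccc
Saa2: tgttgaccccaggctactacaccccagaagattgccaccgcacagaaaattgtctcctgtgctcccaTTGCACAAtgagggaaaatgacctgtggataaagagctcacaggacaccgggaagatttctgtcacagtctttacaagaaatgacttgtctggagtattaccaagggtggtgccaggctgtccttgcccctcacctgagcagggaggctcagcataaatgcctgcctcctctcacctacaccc
Lcn2: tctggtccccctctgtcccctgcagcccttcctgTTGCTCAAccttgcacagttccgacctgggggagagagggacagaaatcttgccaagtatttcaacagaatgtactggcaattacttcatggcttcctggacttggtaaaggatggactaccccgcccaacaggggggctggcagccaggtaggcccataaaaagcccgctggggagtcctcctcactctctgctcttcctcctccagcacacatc
Ptx3: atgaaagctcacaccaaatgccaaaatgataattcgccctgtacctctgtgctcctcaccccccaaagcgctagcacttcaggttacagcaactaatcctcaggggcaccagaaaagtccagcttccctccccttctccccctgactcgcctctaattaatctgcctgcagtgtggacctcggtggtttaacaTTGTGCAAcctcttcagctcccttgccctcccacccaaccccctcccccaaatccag
Serpina3n: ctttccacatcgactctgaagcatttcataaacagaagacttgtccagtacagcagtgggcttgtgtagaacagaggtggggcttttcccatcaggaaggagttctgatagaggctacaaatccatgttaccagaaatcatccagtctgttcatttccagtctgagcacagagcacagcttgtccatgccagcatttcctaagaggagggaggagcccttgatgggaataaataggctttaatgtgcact

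The C/EBP core was found in 5 of the 7 windows. It ended 92 bases before the start in Saa3, 175 in Saa1, 176 in Saa2, 209 in Lcn2 and 50 in Ptx3, and it was not found in Serpina3n or Timp1. Of 32851 promoter windows of the same length, 9.56% held the core. The STAT core TTCNNNGAA was found in 0 of the 7 and in 7.02% of all windows, and the κB consensus in 0 of the 7 and in 7.25% of all windows, both strands searched. The motifs were chosen after the promoters had been read, and a match describes letters, not a bound site. Ptx3, which was lower in sepsis, and Saa3, which was higher, both carried the C/EBP core. The Saa1 and Saa2 windows were 94.8% identical, with a longest shared run of 65 bases, whereas the Saa3 window was 52.2% identical to that of Saa1 and 52.4% to that of Saa2.

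The serum amyloid A genes encode small apolipoproteins of high-density lipoprotein that are among the strongest acute-phase reactants. Saa3, the form made mostly outside the liver, carried nearly all of the family's reads. Saa3 (ENSMUSG00000040026) measured 1.67, 0.628, 0.602, 1.08 and 1.91 CPM in controls 1 to 5 and 177, 292 and 267 CPM in sepsis 1 to 3. All 3 septic libraries lay far above all 5 controls, and the septic libraries differed 1.65-fold among themselves. The means were 1.18 ± 0.596 CPM (SD, n = 5) and 245 ± 60.5 CPM (SD, n = 3). Over the pooled libraries there were 19 control reads and 3223 septic reads, a 211-fold higher CPM (95% exact counting interval 135 to 350). Counting intervals cover counting error alone, since these reads had no molecular identifiers and may be copies of 1 molecule.

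Saa1 and Saa2, the forms that the liver secretes into plasma, were near the limit of detection. Saa1 (ENSMUSG00000074115) had no read in any control and 3, 4 and 4 reads in sepsis 1 to 3, which is 0.798, 0.84 and 0.913 CPM. Against a floor of 3 reads over the control group, Saa1 was at least 4.55-fold higher in sepsis. Saa2 (ENSMUSG00000057465) had 1 read in control 1, no read in the other controls and 1 read in each septic library, too few for a fold. The last 200 bases of the Saa1 and Saa2 transcripts were 90.1% identical, with a longest shared run of 39 bases, so how the counting assigned their reads is uncertain. Those of Saa1 and Saa3 were 49.4% identical, with a longest shared run of 8 bases.

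Of all reads from the 3 serum amyloid A genes, Saa3 took 99.4% in sepsis 1 (Wilson 95% interval 98.5% to 99.8%). Its share was 99.6% in sepsis 2 (99.2% to 99.8%) and 99.6% in sepsis 3 (99.0% to 99.8%). The intervals of the 3 septic libraries overlapped. In controls Saa3 took 19 of 20 reads, or 95% (76.4% to 99.1%). Saa1 and Saa2 lie next to each other in RefSeq's GRCm38.p6 annotation with no other protein-coding gene between them, and 1 protein-coding gene lies between Saa1 and Saa3. Saa1 and Saa2, neighbours with closely similar promoters, stayed below 1 CPM in every library, while Saa3 on the same chromosome reached 292 CPM.

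Lcn2 encodes lipocalin-2, which withholds iron from bacteria by binding their siderophores and is stored in neutrophil granules. Lcn2 (ENSMUSG00000026822) measured 0, 0, 0, 0.362 and 0.319 CPM in controls 1 to 5 and 50.3, 37.6 and 150.2 CPM in sepsis 1 to 3. The groups did not overlap, and sepsis 3 was the highest, 4.00-fold above sepsis 2. The means were 0.136 ± 0.187 CPM (SD, n = 5) and 79.4 ± 61.7 CPM (SD, n = 3). With 2 control reads against 1026 septic reads, the pooled ratio was 637 (95% exact counting interval 176 to 5265). That ratio is loosely fixed because of the 2 control reads: it was 346 without sepsis 3, 1059 without control 4 and 1022 without control 5.

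Hp encodes haptoglobin, which binds free haemoglobin and is a classic positive acute-phase protein of the liver. It showed no separation here. Hp (ENSMUSG00000031722) measured 11.4, 17.6, 6.93, 12.7 and 11.8 CPM in controls 1 to 5 and 6.12, 8.40 and 28.3 CPM in sepsis 1 to 3. Sepsis 3 was above every control, sepsis 1 was below every control and sepsis 2 lay within their range. The means were 12.1 ± 3.8 CPM (SD, n = 5) and 14.3 ± 12.2 CPM (SD, n = 3), from 192 and 187 reads. The pooled ratio of 1.21 (95% exact counting interval 0.983 to 1.49) turned to a log2 ratio of -0.70 without sepsis 3.

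Lbp encodes the lipopolysaccharide-binding protein that hands bacterial endotoxin to CD14 and the receptor TLR4. Lbp (ENSMUSG00000016024) measured 10.5, 7.22, 5.12, 5.42 and 5.10 CPM in controls 1 to 5 and 6.65, 7.56 and 10.3 CPM in sepsis 1 to 3. The groups overlapped, with control 1 the highest of the 8 libraries. The means were 6.68 ± 2.33 CPM (SD, n = 5) and 8.16 ± 1.89 CPM (SD, n = 3), and the pooled ratio was 1.21 (95% exact counting interval 0.915 to 1.59), from 109 and 106 reads. Without control 1 it was 1.43, and with libraries scaled by their totals alone it was 1.62.

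Ptx3 encodes the long pentraxin 3, a secreted pattern recognition protein made by fibroblasts, endothelium and myeloid cells that opsonises microbes. Its direction was opposite to that of Saa3 and Lcn2. Ptx3 (ENSMUSG00000027832) measured 2.5, 2.51, 2.11, 3.25 and 2.55 CPM in controls 1 to 5 and 0.266, 0.42 and 0.457 CPM in sepsis 1 to 3. Every septic library lay below every control, although each septic value rests on 1 or 2 reads. The pooled counts were 41 control reads and 5 septic reads, so the control CPM was 6.61-fold higher (95% exact counting interval 2.61 to 21.4).

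Serpina3n and Serpina3m are neighbouring mouse genes of the antichymotrypsin family, secreted inhibitors of serine proteases such as cathepsin G. Serpina3n (ENSMUSG00000021091) measured 3.89, 3.14, 0.903, 1.08 and 0.319 CPM in controls 1 to 5 and 77.1, 110.9 and 279 CPM in sepsis 1 to 3. The groups did not overlap, and sepsis 3 was 3.61-fold above sepsis 1. The means were 1.87 ± 1.55 CPM (SD, n = 5) and 156 ± 108 CPM (SD, n = 3). From 31 and 2039 reads the pooled ratio was 81.6 (95% exact counting interval 57.3 to 120.5), and it was 49.6 without sepsis 3. Controls also spread: controls 1 and 2 were above 3 CPM and control 5 held a single read.

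Serpina3m (ENSMUSG00000079012) had no read in any control and 4, 11 and 24 reads in sepsis 1 to 3, which is 1.06, 2.31 and 5.48 CPM. It was at least 16.1-fold higher in sepsis against a floor of 3 reads over the control group, and at least 9.40-fold higher without sepsis 3. The order of the septic libraries was that of Serpina3n. Of the reads of this gene pair, Serpina3m took 1.36% in sepsis 1 (Wilson 95% interval 0.53% to 3.45%), 2.04% in sepsis 2 (1.14% to 3.62%) and 1.93% in sepsis 3 (1.30% to 2.85%). The intervals overlapped, while the pair's reads numbered 294, 539 and 1245 in the same libraries. The last 200 bases of their transcripts were 51.7% identical, with a longest shared run of 9 bases, and the whole transcripts were 67.0% identical, with a longest shared run of 65 bases. Whether a small share of Serpina3n reads was counted to Serpina3m was not tested.

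Timp1 encodes an inhibitor of matrix metalloproteinases that fibroblasts and immune cells secrete, and it is an acute-phase gene in liver. Timp1 (ENSMUSG00000001131) measured 3.89, 0.942, 0.301, 0 and 0.319 CPM in controls 1 to 5 and 0, 0.84 and 0 CPM in sepsis 1 to 3. Control 1 held 14 of the 19 control reads and sepsis 2 held all 4 septic reads, so the groups overlapped. The pooled control CPM was 3.83-fold higher (95% exact counting interval 1.27 to 15.5), but 1.30-fold higher without control 1, from 5 and 4 reads.

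**Figure D1:**
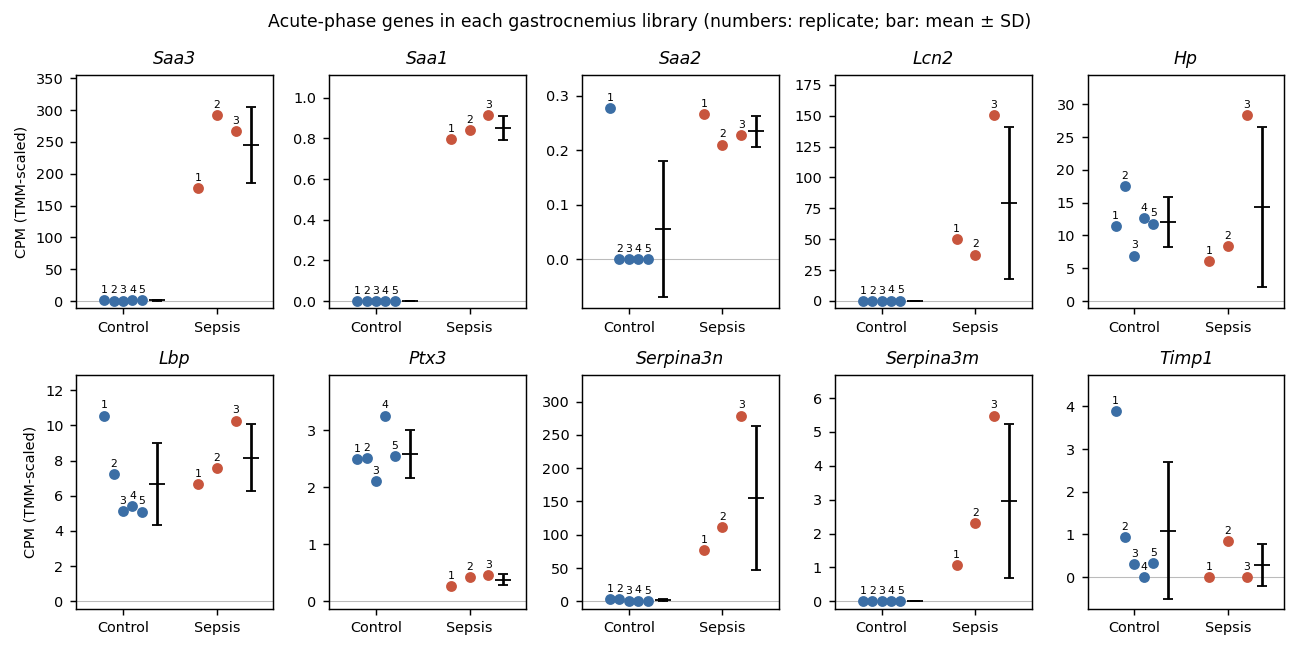
Each panel plots 1 gene on its own vertical axis in CPM, with 1 point per library numbered by replicate and a bar for the mean ± SD of 5 controls (blue) and 3 septic libraries (red). Saa3 reached 177 to 292 CPM in sepsis and stayed at or below 1.91 CPM in controls, while Hp, Lbp, Saa2 and Timp1 overlapped and Ptx3 was lower in all 3 septic libraries.

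Together the 10 genes took 0.00141% to 0.00306% of the counts in a control library. In sepsis they took 0.036%, 0.0596% and 0.0863% of the counts of libraries 1, 2 and 3. Saa3, Lcn2 and Serpina3n supplied 6288 of the 6643 septic reads of the 10 genes, or 94.7%, and 52 of the 414 control reads, or 12.6%. In controls most of the reads came from Hp and Lbp, the genes whose groups overlapped.

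The septic libraries did not rank alike for all genes. Relative to its own septic mean, Saa3 stood at 0.721, 1.19 and 1.09 in sepsis 1, 2 and 3, a narrow spread with sepsis 2 the highest. Lcn2 stood at 0.633, 0.474 and 1.89, Serpina3n at 0.496, 0.713 and 1.79, and Hp at 0.428, 0.589 and 1.98, each highest in sepsis 3. Lbp, which overlapped with controls, was also highest in sepsis 3. The neutrophil gene S100a8 stood at 0.537, 1.19 and 1.28 and the neutrophil granule gene Ngp at 0.918, 0.878 and 1.20. Stat3 was 0.773, 0.717 and 1.51 and Cebpd was 1.20, 0.33 and 1.47, both lowest in sepsis 2, as were Lcn2 and Ngp. With 3 septic libraries these orders are a description only.

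**Figure D2:**
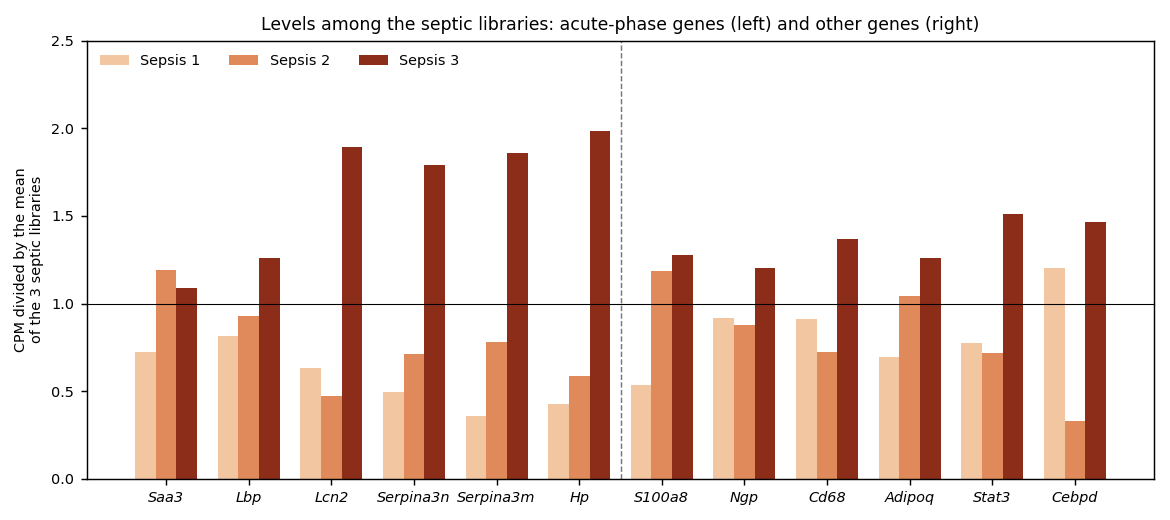
Bars show the CPM of a gene in each of the 3 septic libraries divided by the mean of the 3, for 6 of the acute-phase genes (left of the dashed line) and 6 other genes (right). Sepsis 3 reaches 1.79 to 1.98 times the mean for Lcn2, Serpina3n, Serpina3m and Hp, whereas Saa3 has its highest value, 1.19, in sepsis 2.

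The inducing cytokines were at the limit of detection in this muscle. None of the 12 cytokine genes listed, which include the interleukin-6 family, interleukin-1 and tumour necrosis factor, had enough reads to be tested. Il6 had 1 control read and 2 septic reads, Il1b had 1 and 7, and Tnf had 2 and 12, each summed over the group. A change in these transcripts was not detectable at this depth.

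Of 12 cytokine receptor genes, 9 were tested with edgeR's quasi-likelihood test, 6 were higher, 1 was lower and 2 did not pass, and their median log2 fold change was 0.88 against 0.01 over all genes. The background for such counts is wide, since edgeR called 25.2% of the 9810 tested genes higher and 25.2% lower. A gene with few reads can enter the fit through its higher group alone, and it can then be called in that direction only. The background genes passed the same filter. Of all genes called, 50.1% were higher, and 75.4% were higher when libraries were scaled by their totals alone. Il6ra, the interleukin-6 receptor chain, measured 8.70 ± 1.76 CPM in controls and 40.8 ± 18.0 in sepsis, with 61.2, 26.9 and 34.2 CPM in septic libraries 1 to 3. Its log2 fold change was 2.21 (SE 0.26, edgeR adjusted p = 1.77e-05), the largest among the 9 tested. Il6st, the shared signalling chain gp130, rose less, by a log2 fold change of 0.53 (SE 0.13, edgeR adjusted p = 0.00325). Osmr, the oncostatin M receptor, had a log2 fold change of 1.21 (SE 0.26, edgeR adjusted p = 0.00156) and Tnfrsf1a, the main tumour necrosis factor receptor, 1.34 (SE 0.21, edgeR adjusted p = 0.000187). Lifr, the leukaemia inhibitory factor receptor, was the gene of the list that fell, with -0.89 (SE 0.14, edgeR adjusted p = 0.000186). The interleukin-1 receptor Il1r1 did not pass, at 0.46 (SE 0.29, edgeR adjusted p = 0.199). Its decoy Il1r2 had 7 control and 70 septic reads, 0.426 ± 0.229 CPM against 5.51 ± 4.45 CPM, and was not tested.

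The signalling list held 33 genes, of which 26 were tested, 14 rose, 2 fell and 10 did not pass, with a median log2 fold change of 1.11 against 0.01 over all genes. Stat3 measured 63.0 ± 4.69 CPM in controls and 191 ± 84.5 in sepsis, 3.03-fold higher (edgeR adjusted p = 9.12e-05). Cebpd, the C/EBPδ gene, measured 11.1, 13.2, 20.5, 46.6 and 25.2 CPM in controls 1 to 5 and 363, 99.6 and 442 CPM in sepsis 1 to 3. It was 13.1-fold higher with no overlap (log2 fold change 3.71, SE 0.60, edgeR adjusted p = 0.0017). Cebpb, the C/EBPβ gene, was 2.91-fold higher (edgeR adjusted p = 0.000508), and Cebpa, the family member of liver and fat, did not pass (log2 fold change 0.01, SE 0.31, edgeR adjusted p = 0.986).

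On the NF-κB side, Rela rose 2.75-fold (edgeR adjusted p = 8.19e-05) while Nfkb1 did not pass (log2 fold change 0.39, SE 0.23, edgeR adjusted p = 0.185). Genes of the IκB proteins, which hold NF-κB in the cytoplasm, rose as well. Nfkbib went from 39.4 ± 1.76 to 166 ± 31.7 CPM (4.21-fold, edgeR adjusted p = 6.64e-08) and Nfkbia from 107 ± 13.2 to 239 ± 77.6 CPM (2.23-fold, edgeR adjusted p = 0.000354). Irak1, a kinase below the interleukin-1 receptor, rose 2.08-fold (edgeR adjusted p = 6.16e-05). Socs3, the feedback inhibitor that STAT3 induces, had a log2 fold change of 1.27 (SE 0.35, edgeR adjusted p = 0.0089), and without sepsis 1, its highest library, the adjusted p was 0.0764. Glucocorticoid also acts on acute-phase genes: its target Tsc22d3 rose 2.58-fold (edgeR adjusted p = 2.18e-05) and Fkbp5 rose 5.78-fold (edgeR adjusted p = 8.26e-05). The receptor gene Nr3c1 fell, with a log2 fold change of -0.61 (SE 0.14, edgeR adjusted p = 0.00305), a call lost when libraries were scaled by their totals alone.

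Of 30 other acute-phase genes, 9 were tested with edgeR, 6 rose, 1 fell and 2 did not pass, with a median log2 fold change of 0.98 against 0.01 over all genes. Cp, the copper carrier ceruloplasmin, went from 11.7 ± 1.55 to 30.4 ± 2.91 CPM (2.60-fold, edgeR adjusted p = 1.51e-05). The complement genes C4b (2.75-fold, edgeR adjusted p = 0.000249) and Cfb (3.84-fold, edgeR adjusted p = 0.00152) rose, as did Lrg1, a leucine-rich glycoprotein (1.97-fold, edgeR adjusted p = 0.00148). Cfb entered the fit through its septic reads, 21, 56 and 90, against 20, 8, 9, 8 and 8 in controls 1 to 5. C3 passed narrowly (log2 fold change 0.48, SE 0.19, edgeR adjusted p = 0.0449), a call lost in 8 of the alternatives run, namely DESeq2, the replicate block and leaving out any of controls 2 to 5 or sepsis 2 or 3. Serping1, the C1 inhibitor, fell (log2 fold change -0.60, SE 0.19, edgeR adjusted p = 0.019), a call lost with library totals alone and without sepsis 1.

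Several of the 30 genes had few reads. Over all 8 libraries Crp, the C-reactive protein gene, had 0 control and 2 septic reads, Hpx, the haem carrier hemopexin, had 0 and 1, and Hamp, the iron hormone hepcidin, had 0 and 4. Itih4 had 0 and 6 reads, all of them in sepsis 3. Of the 30 genes, 9 had no read in any library. Orm1, the orosomucoid gene, had 21 control and 35 septic reads and was not tested.

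Of 23 relatives of the 10 genes in the table, 4 were tested with edgeR, 1 rose, 1 fell and 2 did not pass. Apod, a lipocalin like Lcn2, went from 52.4 ± 6.77 to 215 ± 31.6 CPM (4.11-fold, edgeR adjusted p = 1.07e-07). Timp2, a metalloproteinase inhibitor like Timp1, went from 266 ± 23.9 to 101 ± 39.3 CPM, 2.62-fold lower (edgeR adjusted p = 0.000136). Timp3 did not pass (log2 fold change -0.14, SE 0.11, edgeR adjusted p = 0.322), nor did Timp4 (0.05, SE 0.24, edgeR adjusted p = 0.87). The sign of Timp3 turned to 0.28 with library totals alone. Serpina3c had 41 control and 22 septic reads and Serpina3k had 0 and 7, both untested, and Saa4 had no read.

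Of 18 receptors and binding partners of the encoded proteins, 8 were tested with edgeR, 5 rose, 2 fell and 1 did not pass. Cd163, the scavenger receptor of macrophages that takes up haptoglobin with haemoglobin, went from 5.32 ± 1.27 to 20.6 ± 7.92 CPM (3.85-fold, edgeR adjusted p = 5.73e-05). Tlr4, to which LBP delivers endotoxin, went from 1.5 ± 1.01 to 5.26 ± 2.11 CPM (3.37-fold, edgeR adjusted p = 0.00682), and its partners Cd14 (15 control and 35 septic reads) and Ly96 (7 and 13) were not tested. Tlr4 entered the fit through its septic reads, 18, 36 and 15, against 9, 8, 5, 1 and 2 in controls 1 to 5, so only a rise could be called. The serum amyloid A receptors Cd36 and Scarb1 rose 2.11-fold (edgeR adjusted p = 0.000271) and 1.92-fold (edgeR adjusted p = 0.0018). Fpr2, another of them, had 2 control and 36 septic reads and was not tested. Cd63, a binding partner of TIMP-1, rose 2.01-fold (edgeR adjusted p = 2.23e-06). Of the lipocalin-2 receptors, Slc22a17 had 29 control and 16 septic reads and Lrp2 had none. Fgf2, which pentraxin 3 binds, fell with a log2 fold change of -1.33 (SE 0.35, edgeR adjusted p = 0.00655). It entered the fit through its control reads, 12 to 23 per library, against 5, 12 and 10 in sepsis 1 to 3.

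Of 19 protease genes whose products these inhibitors or their relatives act on, 6 were tested with edgeR, 1 rose, 3 fell and 2 did not pass. Mmp15, a membrane-bound metalloproteinase, went from 11.7 ± 1.77 to 1.97 ± 1.34 CPM, 5.75-fold lower (edgeR adjusted p = 6.57e-05). Adamts5, an aggrecan-cleaving enzyme, was 3.03-fold lower (edgeR adjusted p = 1.12e-05) and Mmp2, gelatinase A, had a log2 fold change of -0.78 (SE 0.23, edgeR adjusted p = 0.0113), lost with library totals alone. Adam10, a sheddase, was 1.99-fold higher (edgeR adjusted p = 0.000382).

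**Figure D3:**
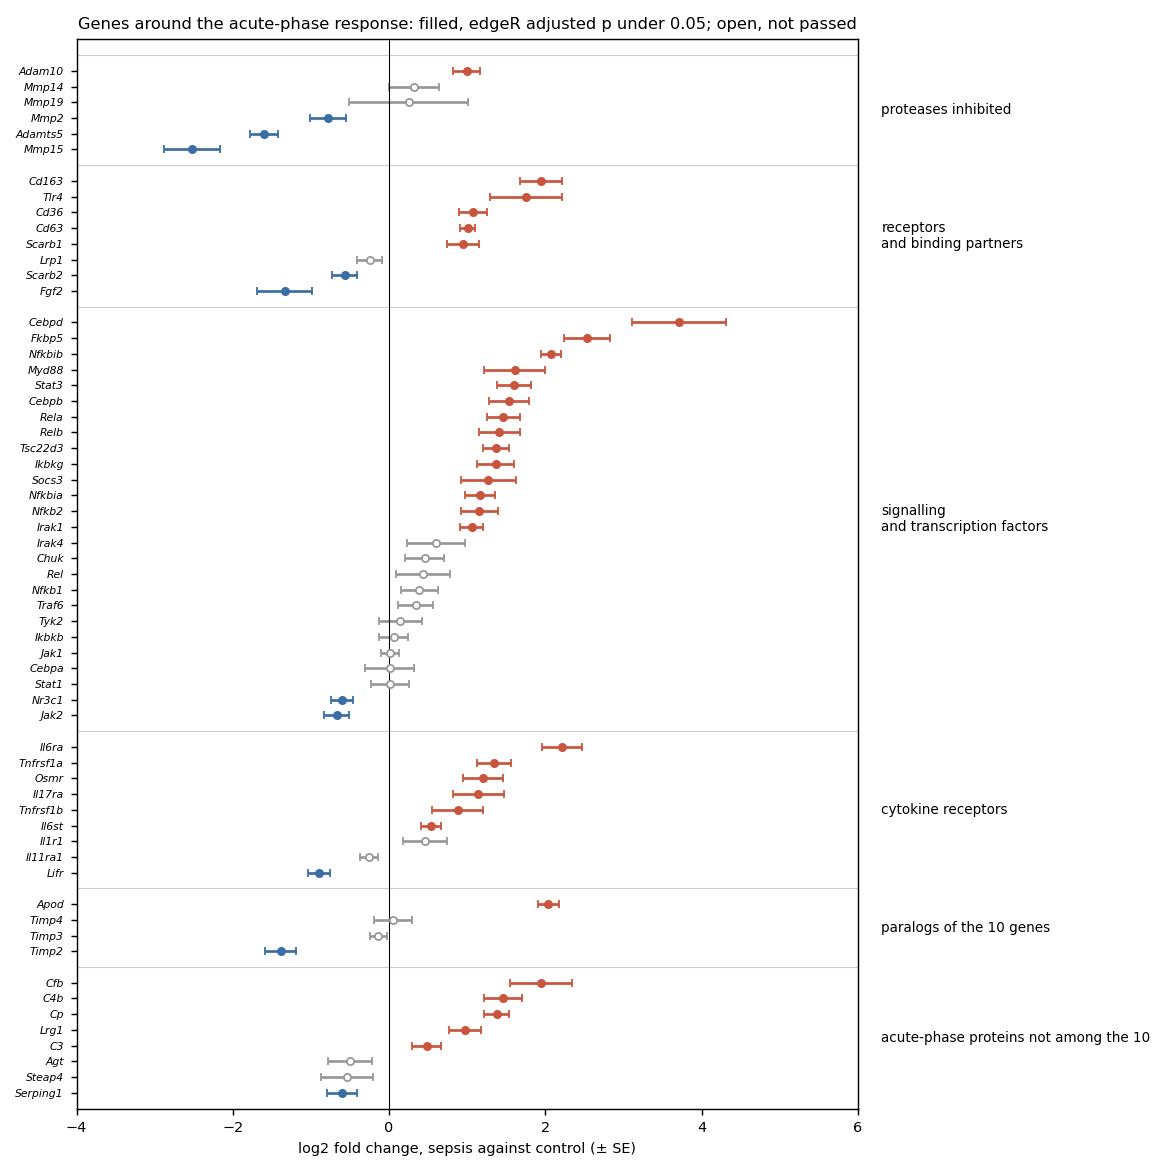
Points show the log2 fold change of sepsis against control with its SE for the tested and reported genes of 6 lists around the acute-phase response, filled where edgeR's adjusted p was under 0.05 (red higher, blue lower) and open otherwise. Cebpd at 3.71 is farthest to the right, and Mmp15 at -2.52 is farthest to the left.

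Markers of the liver were almost absent. The 11 hepatocyte markers summed to 0 to 1.08 CPM in controls and 0.228 to 0.63 CPM in sepsis, from 9 and 5 reads, 4 of the 11 had no read in any library, and Alb, the albumin gene, had 3 control reads and no septic read.

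Neutrophil markers, like Lcn2, were higher in sepsis, but their sum did not rank the septic libraries as Lcn2 did. The 12 neutrophil markers summed to 0.301 to 1.27 CPM in controls and to 67.6, 135.5 and 150.0 CPM in sepsis 1 to 3. Lcn2 in those septic libraries was 50.3, 37.6 and 150.2 CPM. Ngp ranked them as Lcn2 did, with a narrower spread, at 5.05, 4.83 and 6.62 CPM. S100a8, S100a9 and Retnlg were lowest in sepsis 1. All 4 markers that were tested rose (edgeR), but the list had only 13 reads over all controls. Those 4 thus entered the fit through their septic reads and could only be called higher, and the other 8 were not tested. S100a8 had 3 control and 821 septic reads, S100a9 2 and 512, Ngp 0 and 71 and Retnlg 0 and 66, whereas Mpo and Elane, genes of primary granules, had no read in any library. Ngp, Camp and Ltf, genes of the granules that also store lipocalin-2, gave 22, 29 and 38 reads in sepsis 1 to 3 beside 189, 179 and 658 reads of Lcn2. The part of neutrophils in the level of Lcn2 was not tested.

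Macrophage markers were also higher, summing to 76.3 to 188 CPM in controls and 319 to 526 CPM in sepsis, with 6 of the 8 tested raised (edgeR). Cd68, a lysosomal protein of macrophages, went from 3.60 ± 2.42 to 109.6 ± 36.4 CPM (log2 fold change 4.87, SE 0.36, edgeR adjusted p = 2.76e-06). Sepsis 2 had the highest macrophage sum, 526 CPM against 319 and 323 CPM in sepsis 1 and 3, and it also had the highest Saa3. Between sepsis 1 and 3 the sums were close, while Saa3 was 177 and 267 CPM. Cd68, alone of the listed markers, was lowest in sepsis 2, at 99.7, 79.2 and 150.0 CPM in sepsis 1 to 3. Saa3 is known from macrophages and fat, and the part of these cells in its level was not tested.

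Adipocyte markers did not separate the groups. They summed to 90.9 to 246 CPM in controls and 87.0 to 169 CPM in sepsis, and none of the 5 tested passed with edgeR or DESeq2, with 1 at an unadjusted edgeR p under 0.05. Hp, which fat transcribes, was highest among controls in control 2, as was Adipoq, the adiponectin gene, at 29.8 CPM, and lowest in control 3, as was Adipoq at 12.3 CPM. In sepsis Adipoq measured 13.0, 19.5 and 23.5 CPM in libraries 1 to 3, in the order of Hp. The whole list ranked otherwise, with its highest control sum in control 1 (246 CPM against 238 CPM in control 2) and its highest septic sum in sepsis 2 (169 CPM against 166 CPM in sepsis 3). The part of fat in the level of Hp was not tested.

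Fibroblast markers were lower, at 850 to 1527 CPM in controls and 265 to 374 CPM in sepsis, with 7 of 7 lower (edgeR), beside the lower Ptx3. Control 1 had the highest fibroblast sum and the highest Timp1, and sepsis 2, with all of the septic Timp1 reads, lay between the other septic libraries. Endothelial markers summed to 127 to 132 CPM in controls and 134 to 193 CPM in sepsis, and of the 6 tested 3 were higher and 1 lower (edgeR). Erythroid markers ranged from 44.0 to 954 CPM in controls and from 14.3 to 89.6 CPM in sepsis, and the ranges overlapped. Of the 4 erythroid genes tested, 1 was lower with edgeR and 4 with DESeq2. The parts of fibroblasts in Ptx3 and Timp1 were not tested.

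**Figure D4:**
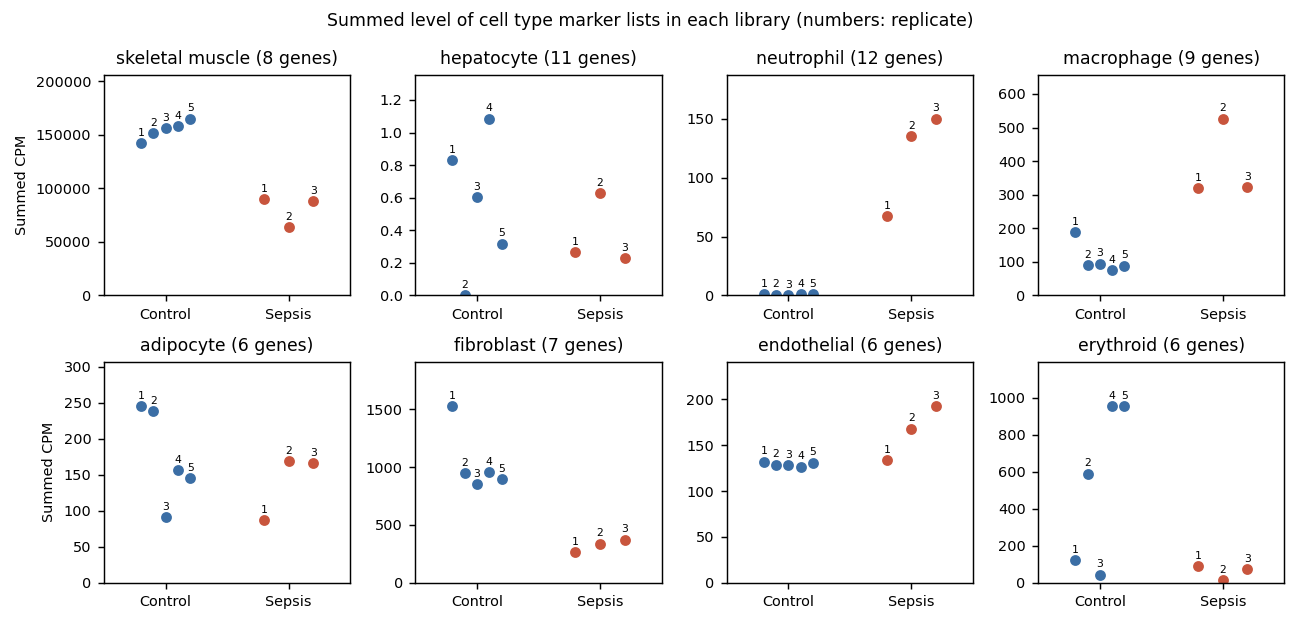
Each panel plots the summed CPM of a list of cell type markers in each library, numbered by replicate, for 5 controls (blue) and 3 septic libraries (red), each on its own axis. Hepatocyte markers stay at or below 1.08 CPM in all 8 libraries, neutrophil markers reach 67.6 to 150.0 CPM in sepsis, and fibroblast markers are lower in all 3 septic libraries.

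Genes with patterns most like 2 of the 10 genes were ranked over all 8 libraries by the root mean square difference in log2 CPM after centring each gene, among 9810 genes. Nearest to Serpina3n were S100a9 (0.83), Cd68 (0.85) and Mt1 (0.87), the last a metallothionein that measured 31.4 to 83.9 CPM in controls and 3573 to 4452 CPM in sepsis. This distance includes the step between the groups, which was known when Serpina3n was chosen. Among the septic libraries S100a9 ranked as Serpina3n did, while Cd68 and Mt1 were lowest in sepsis 2. A shared regulation or cell source was not tested. Nearest to Timp1 were Col8a1 (0.40), a collagen gene, Tmem254a (0.45) and Aco1 (0.49), the cytosolic aconitase. Timp1 had 19 control reads, 14 of them in control 1, and 4 septic reads, so this ranking leans on control 1. About 2 reads were added to each count before the log, which draws such low values together. Col8a1 shared with Timp1 its highest value in control 1, 18.3 CPM against 4.14 to 5.34 CPM in the other controls.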

How the data were processed

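The values used were raw counts of reads by gene, deposited by the authors as a single table in which each library has its own column. RNA was purified on spin columns and made into 3′-end libraries with a QuantSeq kit, per the labels' protocols. The genome build was GRCm39, per the submitters' processing notes. The aligner, counter, strand setting and annotation are not given in the sources used here, so reads of overlapping genes cannot be told apart. The table held 25655 genes, 9287 of them without a read. Totals of 3086277 to 4016329 counts set a precision of about 0.21 to 0.362 CPM per read.

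Sepsis (3 libraries) was compared with Control (5) by edgeR 4.0.16 in R 4.3.3, with its expression filter (minimum count 10, minimum total 15, leaving 9810 genes), TMM scaling, the robust quasi-likelihood F test and Benjamini-Hochberg adjustment over all genes at 0.05. The SE is the log2 fold change over the root of F. The alternatives were DESeq2 1.42.0, library totals alone, no filter, a replicate block and leaving out each library. The procedure was tested on simulated data.

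The 10 genes and the 15 gene lists (210 genes, 209 found) were chosen with earlier results of these data known. A gene of the lists is counted but not reported here by name. The genes named were the 10 genes, up to 4 genes per list with the smallest p past the threshold, and list genes with a direct known tie to the 10 (cytokine, receptor, relative). For likeness of pattern they were the 3 genes nearest to Serpina3n and to Timp1, and for cell types the markers needed to say which are at 0. Chosen after their values were seen were Stat3, Cebpa, Cebpb, Cebpd, Nfkb1, Nfkbia, Socs3, S100a8, Ngp, Retnlg, Camp, Ltf, Adipoq, Acta1, Ckm, Fgf2, Col1a1, Mmp13, Fkbp5, Nr3c1, C3, Cfb, Serping1, Crp, Hpx, Hamp, Itih4 and Orm1. Fold changes of the 10 genes are ratios of pooled CPM, or lower bounds from a floor of 3 reads over a group without a read. Promoters and gene order came from RefSeq tables and transcripts from GENCODE, both on GRCm38, an earlier build than that of the files, so no coordinates of the counted genes are given. All 10 gene identifiers were found in the name table.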

Additional observations from a re-analysis of the deposited data

Results flagged for a closer look

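Among the genes named, 28 were checked for a control library far from the other 4 controls, and 4 had one, where chance gives about 1 in 20. Timp1 was high in control 1, at 3.89 CPM, with a gap of 0.758 of the range of the 5 controls. Il6ra was high in control 3, at 11.7 CPM (0.711 of the range), and so was Osmr in the same library, at 4.82 CPM (0.774). Lrg1 was low in control 5, at 16.3 CPM (0.803).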

How the results depend on the processing

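For the 9 of the 10 genes given a ratio or a bound (all but Saa2), the direction was the same under each alternative run, except for Hp. Without sepsis 3 its log2 ratio of pooled CPM was -0.70 (leaving out 1 library at a time, -0.70 to 0.60, against 0.27 with all 8), and its fitted log2 fold change was -0.71. Saa1 and Serpina3m had no control read, so their direction could not turn under any alternative. The replicate block covered only the 5 genes that entered the fit, and so not Saa1, Serpina3m, Ptx3 or Timp1. With library totals alone the pooled ratio was 1.62 for Hp and 1.62 for Lbp, against 1.21 for each. Of the 10 genes, 6 then lay above every control in every septic library, against 5. Scaling by library totals alone moved the median over the tested genes from 0.01 to 0.43 (log2), called 4256 genes higher and 1387 lower against 2475 and 2468, and turned Timp3 from -0.14 to 0.28. Under it the lower calls were 0 of the other acute-phase genes (1), 0 of the signalling genes (2) and 1 of the receptors and binding partners (2), and the higher calls were 2 of the relatives (1), with the usual count in brackets. With no filter on low counts, higher calls were 2 relatives (1), 8 receptors and binding partners (5) and 4 proteases (1), and lower calls were 2 relatives (1). With the replicate block, 3625 genes were called against 4943, 1741 higher and 1884 lower, and 1 receptor or binding partner was lower (2). Same-numbered libraries did not deviate together (correlations -0.12, 0.04 and -0.02), and not every library correlated best with its own number. The main fit did not pair libraries by number. These correlations cannot tell whether a number marks a shared preparation. Leaving out 1 library at a time gave 4428 to 5039 genes called, 0 to 1 other acute-phase gene lower, 1 to 2 cytokine receptors lower and 1 to 2 proteases higher. The causes were not tested. Depth limits Saa1, Saa2, the septic level of Ptx3 and the cytokines, which rest on few reads.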
